A study of Mus musculus with 96 samples.

Results

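Injection of plasma from young mice was set against injection of PBS, the saline vehicle, in the cerebral cortex of male C57BL/6J mice aged 22 months. The members were chosen by title, as the cortex libraries of the first experiment labelled 22 months with young plasma (3 libraries, mice 16, 19 and 22) or PBS (3 libraries, mice 15, 18 and 21). These are 6 of the 96 brain mRNA libraries of the series, and each comes from a separate mouse. Both groups had 7 daily injections, no transgene or other agent is labelled in either, and no untreated mice of 22 months were analysed here. The fit used all 29 cortex libraries of the first experiment for the spread between libraries. The others came from untreated mice of 2 and 18 months, mice of 18 months with 7 injections and mice of 19 months with 24 injections. The labels give no dose, donor age or interval between the last injection and dissection.

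Plasma transfer is a way to ask whether soluble factors in blood act on an aged organ. In the brain such factors can act at the endothelium of the blood-brain barrier, on glia that sense cytokines and complement, or on neurons through secreted factors and their receptors. Genes of class I antigen presentation, complement and interferon response are known to rise in the ageing mouse brain, and Gfap and Serpina3n mark reactive astrocytes. The comparison asks which cortical transcripts differ after a week of plasma at an advanced age.

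Total counts of the 6 libraries ran from 5424040 in plasma replicate 19 to 15099544 in PBS replicate 15. All 15 markers of excitatory cortical neurons were detected, and their summed level was 4895 to 5993 CPM (a gene's counts per 1000000 counts of its library). PBS replicate 15 stood apart before any group was compared. Its mean root-mean-square log2 distance to the other 5 libraries was 0.547, against 0.406 to 0.484 for the others. It differed by more than 2-fold from the median of the other 5 libraries in 920 genes, against 208 to 654 genes for the others, of which plasma replicate 19 had the most. Its excitatory neuron sum of 4895 CPM was also the lowest of all 29 cortex libraries, where the other 28 held 5247 to 7139. The titles carry a second number whose meaning is not given. The 3 plasma mice share it with PBS replicate 21, and PBS replicates 15 and 18 carry another. Values are given with all 6 libraries. For the changes of genes and lists in this comparison, the value without PBS replicate 15 is added where leaving it out turned the sign or moved the value by over 1.5 times, and in some cases the value with PBS replicate 21 as the 1 PBS library.

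No gene passed the test for a difference between plasma and PBS in the cortex at 22 months. Of 18769 genes tested, 0 (0%) passed an adjusted p of 0.05 in edgeR's quasi-likelihood test with Benjamini-Hochberg adjustment, and the smallest adjusted p was 0.829. At an unadjusted p under 0.05 there were 1059 genes (5.64%), 418 (2.23%) higher and 641 (3.42%) lower with plasma. DESeq2 called 0 genes with 812 at an unadjusted p under 0.05, and limma-voom called 0 genes with 1188. The 2 groups did not overlap in 1930 genes (10.3%), of which 961 (5.12%) were higher with plasma and 969 (5.16%) lower. Without PBS replicate 15 the number at an unadjusted p under 0.05 fell to 552 (2.9%), 278 (1.46%) higher and 274 (1.44%) lower, and without PBS replicate 21 it was 1687, with 0 calls in each. With PBS replicate 21 as the 1 PBS library it was 394 (2%), again with 0 calls.

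The depth and spread set which changes could have been seen. The standard error of the log2 fold change had a median of 0.15 over all genes tested and 0.11 over the 12838 genes with a mean of at least 5 CPM. The 95% interval, not adjusted for the number of genes, lay within a change of 2-fold either way for 12565 of those 12838 genes (97.9%). It lay within 1.5-fold for 11277 of them (87.8%). In bulk tissue, fewer cells of a type and less RNA per cell cannot be told apart.

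The genes that came nearest to the threshold were described next, chosen for a low unadjusted p, groups that do not overlap and a mean of at least 5 CPM. Many of the lower ones had their highest value in PBS replicate 15. Car12 (chromosome 9, 66713686 to 66766845 in GRCm38), a membrane carbonic anhydrase, had 4.07, 4.06 and 2.24 CPM in plasma replicates 16, 19 and 22. It had 24.4, 8.04 and 8.67 CPM in PBS replicates 15, 18 and 21. All 3 PBS libraries were above all 3 plasma libraries, and PBS replicate 15 was far above the other PBS mice. The log2 fold change of plasma over PBS, called the change from here on, was -2.04 ± 0.48 (SE), and -1.33 without PBS replicate 15. Oprk1, the kappa opioid receptor (chromosome 1, 5588466 to 5606131), had 2.66, 4.61 and 1.95 CPM with plasma. In PBS replicates 15, 18 and 21 it had 24.3, 9.68 and 5.6 CPM. As for Car12, PBS replicate 15 was the highest library, and the change was -2.25 ± 0.59, or -1.47 without PBS replicate 15. Gnb4 (chromosome 3, 32580332 to 32616585), a G protein beta subunit abundant in the claustrum, had 19.7, 22.1 and 18.5 CPM with plasma. It had 77.1, 41.7 and 31.6 CPM in PBS replicates 15, 18 and 21. Nr4a2 (chromosome 2, 57106830 to 57124003), a nuclear receptor of claustral and deep cortical neurons, had 23.5, 24.2 and 34.0 CPM with plasma and 98.1, 60.8 and 42.1 CPM with PBS. For both genes PBS replicate 15 was highest and PBS replicate 21 closest to the plasma libraries. The changes were -1.34 ± 0.39 for Gnb4 and -1.29 ± 0.39 for Nr4a2, and -0.89 and -0.91 without PBS replicate 15.

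A second kind of lower gene had similar levels in all PBS mice. Tctn2 (chromosome 5, 124598749 to 124627738), a protein of the ciliary transition zone, had 16.7, 15.9 and 17.5 CPM with plasma. In PBS replicates 15, 18 and 21 it had 23.8, 20.1 and 22.7 CPM. The groups did not overlap and PBS replicate 15 was near PBS replicate 21, with a change of -0.41 ± 0.10 and of -0.36 without PBS replicate 15. Col11a1, a fibrillar collagen (chromosome 3, 114030540 to 114220718), had 4.77, 7.37 and 4.83 CPM with plasma and 13.3, 12.5 and 9.64 CPM with PBS. Nub1, which lowers the ubiquitin-like protein NEDD8, had 75.8, 77.2 and 80.7 CPM with plasma and 88.7, 87.9 and 92.6 CPM with PBS. Its change of -0.20 ± 0.06 was the smallest of the 12 named lower genes and the libraries of each group lay close together. The remaining 5 of the 12 were Negr1, a neuronal adhesion protein, the glycosyltransferase gene B3gnt2, Thsd7b, the mitochondrial tRNA synthetase gene Ears2 and Tmem263, with changes of -0.70 to -0.34. Without PBS replicate 15, Negr1 went from -0.41 to -0.21 and Thsd7b from -0.70 to -0.46. Adjusted p was 0.829 to 0.846 for the 12 genes, and none passed the threshold.

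Of the genes higher with plasma by the same criteria, Igfbp7 (chromosome 5, 77349240 to 77408041), a secreted binding protein of insulin-like growth factors found in vessel walls, had 29.7, 24.3 and 26.0 CPM with plasma. It had 16.9, 17.1 and 19.9 CPM in PBS replicates 15, 18 and 21. No PBS library reached the lowest plasma library, and the change was 0.58 ± 0.15, or 0.53 without PBS replicate 15. Slc7a5, the large neutral amino acid transporter of the blood-brain barrier, had 54.3, 52.7 and 58.4 CPM with plasma and 38.6, 43.3 and 52.3 CPM with PBS. PBS replicate 21 was just below the lowest plasma library, and the change of 0.30 ± 0.09 was 0.20 without PBS replicate 15 and 0.09 against PBS replicate 21 alone. Lsr, a protein of tricellular junctions, had 12.9, 13.8 and 11.1 CPM with plasma and 10.2, 8.18 and 7.84 CPM with PBS (change 0.51 ± 0.15). Ptgds, the prostaglandin D synthase of meninges and oligodendrocytes, had 724, 1293 and 771 CPM with plasma and 385, 678 and 655 CPM with PBS. Plasma replicate 19 was far above the other plasma mice and PBS replicate 15 far below the other PBS mice, and the change was 0.69 ± 0.21.

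Wnk2 (chromosome 13, 49036303 to 49148014), a kinase that regulates ion cotransporters, had 102, 100 and 93.2 CPM with plasma and 89.3, 77.3 and 82.8 CPM with PBS. Git1, a scaffold of synaptic signalling, had 179, 189 and 161 CPM with plasma and 147, 150 and 150 CPM with PBS. In both genes the groups were separate by a small margin, with changes of 0.24 ± 0.06 and 0.24 ± 0.07. Irf3, a transcription factor of innate immune sensing, had 16.3, 19.2 and 15.9 CPM with plasma and 12.9, 14.2 and 11.8 CPM with PBS (change 0.38 ± 0.11). The other 5 of the 12 named higher genes were Psrc1, Fbxo30, the DNA repair nuclease gene Dclre1c, Rgcc and Tprn, with changes of 0.39 to 0.76. Adjusted p was 0.846 for all 12 higher genes, and none passed the threshold.

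**Figure D1:**
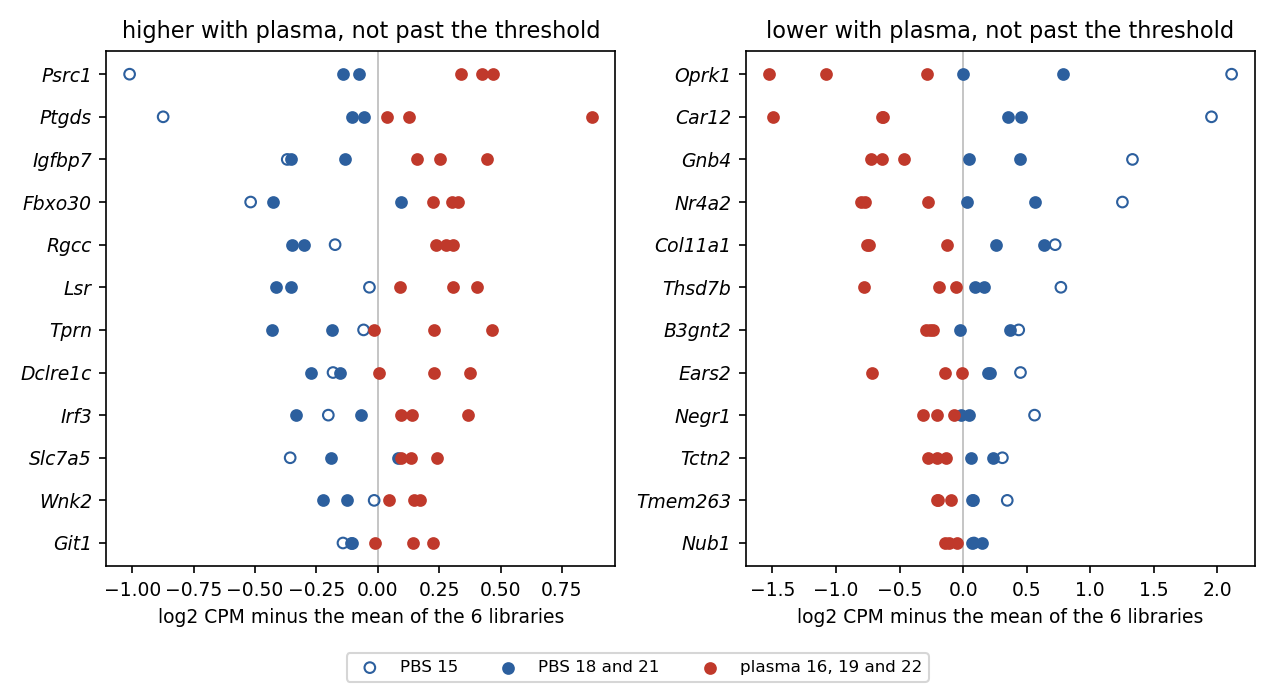
The horizontal axis is the log2 CPM of a library minus the mean of the 6 libraries for each of the 24 named genes, 12 higher (left) and 12 lower (right) with plasma. Red points are plasma libraries, filled blue points PBS replicates 18 and 21, and open blue points PBS replicate 15. The genes were chosen for groups that do not overlap. PBS replicate 15 lies farthest out for Car12 (24.4 CPM) and Oprk1 (24.3 CPM) and within the other PBS libraries' range or near it for Tctn2 (23.8 CPM).

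PBS replicate 15 was at the edge of the 6 libraries in most of the genes with a low p. It was the highest library in 510 of the 641 genes lower at an unadjusted p under 0.05 (79.6%). It was the lowest library in 245 of the 418 higher genes (58.6%). Over all genes tested, in both directions, the shares were 25.9% and 24.1%. Genes selected as lower with plasma tend to peak in a PBS library, and higher genes to have their lowest value there. The shares over all genes are therefore no like baseline. Of the 1059 genes, 302 (28.5%) were also at an unadjusted p under 0.05 without PBS replicate 15.

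Markers of striatal projection neurons were lower in the plasma libraries than in the PBS libraries, although 0 of 12 passed the threshold. The striatum lies directly below the cortex, and its neurons are known for dopamine receptors and opioid peptides. The summed level of the 12 markers was 553, 438 and 203 CPM in plasma replicates 16, 19 and 22. In PBS replicates 15, 18 and 21 it was 1630, 878 and 562 CPM. Of the 29 cortex libraries, PBS replicate 15 had the highest sum and plasma replicate 22 the lowest, while PBS replicate 21 and plasma replicate 16 were nearly level. The difference of the mean log2 sums was -1.34 (exact two-sided permutation test, p = 0.1, the smallest that 3 against 3 allow, and 0.32 adjusted over 16 marker lists). Without PBS replicate 15 it was -0.94. All 12 markers had a negative change, 9 at an unadjusted p under 0.05 and 4 with groups that do not overlap, with a median of -1.47. Over all genes tested, 50% were negative and 5.64% were at an unadjusted p under 0.05. The median was -0.97 without PBS replicate 15, with 0 of 12 at an unadjusted p under 0.05, and -0.50 with PBS replicate 21 as the 1 PBS library.

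Penk, which encodes proenkephalin (chromosome 4, 4133531 to 4138819), had 113, 96.1 and 33.4 CPM in plasma replicates 16, 19 and 22. It had 524, 194 and 114 CPM in PBS replicates 15, 18 and 21, so that plasma replicate 16 and PBS replicate 21 were nearly level. Its change was -1.79 ± 0.64, and -0.96 without PBS replicate 15. Pdyn, which encodes prodynorphin, had 32.6, 29.3 and 26.5 CPM with plasma and 69.1, 37.2 and 31.3 CPM with PBS. Only PBS replicate 15 was far from the rest, and the change of -0.64 ± 0.22 became -0.23 without it. In the hippocampus and cerebellum of the same 6 mice the striatal sum was 124 to 148 CPM and 315 to 339 CPM, with no wide gap between any mice. The part of the striatal level in the other cortical results was not tested beyond a fit with a striatal score as a covariate. The score is the mean log2 CPM of the striatal markers, and the fit called 0 genes and had 977 at an unadjusted p under 0.05.

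**Figure D2:**
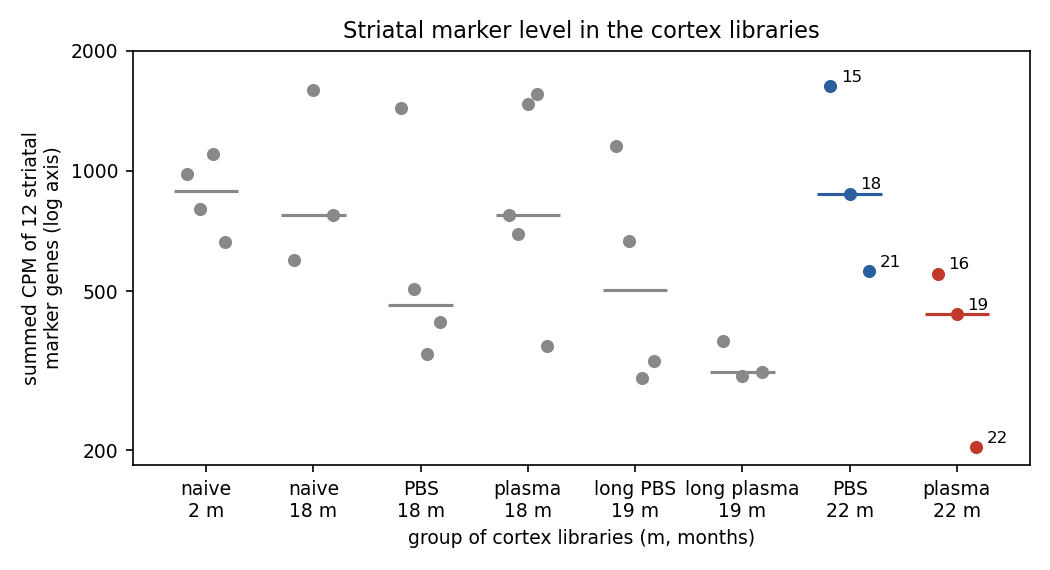
Each point is a cortex library, placed by its group on the horizontal axis and by the summed CPM of the 12 striatal markers on the log vertical axis; bars are group medians, and numbers name the mice of 22 months. PBS replicate 15 (1630 CPM) is the highest and plasma replicate 22 (203 CPM) the lowest of the 29 libraries, and several other groups hold both high and low libraries.

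Genes of cholinergic neurons of the basal forebrain and striatum were also at their highest in PBS replicate 15. These genes were chosen after their values were seen. Chat, the enzyme that makes acetylcholine (chromosome 14, 32408203 to 32465989), had 11.6 CPM in PBS replicate 15, 3.63 in PBS replicate 18, 2.02 in PBS replicate 21, and 1.41, 0.737 and 0.649 in the plasma libraries. The 28 other cortex libraries had at most 7.00 CPM. Slc5a7, the choline transporter, had 16.8 CPM in PBS replicate 15 and 0.369 to 3.63 CPM in the other 5 libraries. Lhx8, a transcription factor of cholinergic neurons, had 6.03, 0.498 and 0.374 CPM in PBS replicates 15, 18 and 21. No count of Lhx8 was seen in the 3 plasma libraries, which allows up to 0.235, 0.553 and 0.216 CPM in replicates 16, 19 and 22 (3 counts, counting error only). The change of Chat was -2.57 ± 0.75, and -1.55 without PBS replicate 15. Ngfr, a neurotrophin receptor that cholinergic neurons carry, had 15.8 CPM in PBS replicate 15 and 2.66 to 4.06 CPM in the other 5 libraries. Of 11 neurotrophin and receptor genes tested, 0 passed, 5 were positive, and the median was -0.03, or 0.02 without PBS replicate 15.

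Choroid plexus genes were high in the same library. The summed level of 14 choroid plexus and ependymal markers was 159 CPM there and 31.2 to 41.1 CPM in the other 5 libraries. Such a level was also seen elsewhere in the cortex, with 152 CPM in PBS replicate 2 and 99.5 CPM in untreated replicate 6, both of 18 months. Ttr, the transthyretin gene that marks choroid plexus epithelium, had 97.6 CPM in PBS replicate 15 against 3.70 and 8.52 CPM in PBS replicates 18 and 21 and 6.96, 7.56 and 5.12 CPM with plasma. Kl, which encodes klotho, had 8.94 CPM in PBS replicate 15 and 1.28 to 2.61 CPM in the other 5. Both genes were level between plasma and the other PBS mice: the changes were -2.52 ± 0.99 and -1.39 ± 0.54 with all libraries, and 0.06 and -0.24 without PBS replicate 15. The list median over 10 tested choroid plexus and ependymal genes was -0.38, and 0.05 without that library. Gad2, the glutamate decarboxylase of inhibitory neurons, had 253 CPM in PBS replicate 15 and 122 to 154 CPM in the other 5. Over 15 interneuron genes the median was -0.007, or -0.05 without PBS replicate 15, 7 were positive and 0 passed.

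**Figure D3:**
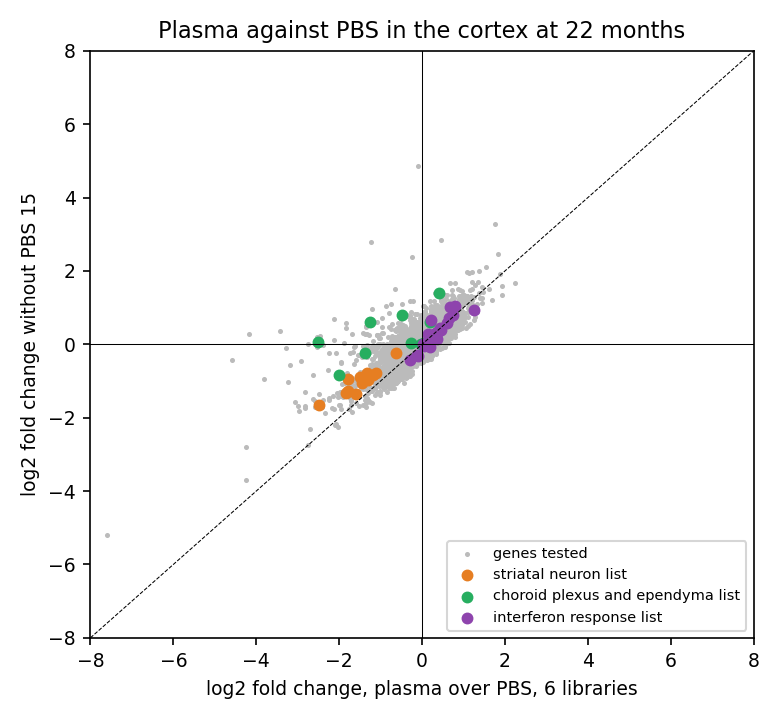
Each point is a tested gene, placed by its log2 fold change of plasma over PBS with all 6 libraries (horizontal axis) and without PBS replicate 15 (vertical axis); the dashed line marks equal values. The striatal list (orange) stays negative on both axes, with medians of -1.47 and -0.97, the choroid plexus and ependyma list (green) goes from -0.38 to 0.05, and the interferon list (purple) has medians of 0.30 and 0.26.

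Genes of the interferon response lay mostly on the positive side in plasma mice, with 0 of 26 past the threshold. Of the 26, 23 were positive against 50% of all genes tested (21 and 49.4% without PBS replicate 15), 3 were at an unadjusted p under 0.05 (5.64% of all genes) and 5 were higher with groups that do not overlap (5.12% of all genes). The median change was 0.30, 0.26 without PBS replicate 15 and 0.24 with PBS replicate 21 as the 1 PBS library. Ifitm3, a membrane protein that blocks viral entry, had 11.6, 17.5 and 14.5 CPM with plasma and 9.47, 11.0 and 10.7 CPM with PBS. Irf7, a transcription factor that amplifies the response, had 2.74, 4.98 and 5.34 CPM with plasma and 3.31, 2.06 and 2.02 CPM with PBS. The groups were separate for Ifitm3 and overlapped for Irf7, with changes of 0.46 ± 0.17 and 0.79 ± 0.29. The third gene at an unadjusted p under 0.05 was Rsad2, with a change of 0.75 and groups that do not overlap.

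Class I antigen presentation, which displays cellular peptides on the cell surface, had 12 of 15 genes positive, a median of 0.15 and 0 calls. H2-D1, a class I heavy chain, had 98.1, 127 and 131 CPM with plasma and 72.9, 94.3 and 108 CPM with PBS. Plasma replicate 16 lay within the PBS range, and the change of 0.37 ± 0.13 was 0.22 without PBS replicate 15. Psmb8, a subunit of the immunoproteasome, had 5.32, 8.11 and 5.34 CPM with plasma and 4.83, 4.34 and 3.66 CPM with PBS (change 0.49 ± 0.21). Class I heavy chains share sequence, so reads may be split between them. Complement had 10 of 16 genes positive, with a median of 0.08, or 0.16 without PBS replicate 15, and 0 calls. The 1 member at an unadjusted p under 0.05, Cd59a, was lower with plasma, as were 3.42% of all genes at that p. Cd59a had 4.07, 4.61 and 3.54 CPM with plasma and 8.61, 7.61 and 4.26 CPM with PBS. The groups overlapped, and the change of -0.78 ± 0.31 was -0.09 against PBS replicate 21 alone. C4b, the complement component named in many studies of the ageing brain (chromosome 17, 34728380 to 34743882), had 94.4, 80.4 and 84.9 CPM with plasma and 74.1, 45.0 and 68.3 CPM with PBS. All plasma libraries were above all PBS libraries, but the change was 0.48 ± 0.35, with an unadjusted p of 0.191.

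Glial lists had small median changes. Gfap had 295, 336 and 249 CPM with plasma and 283, 186 and 280 CPM with PBS, with a change of 0.23 ± 0.24. Serpina3n, a protease inhibitor of reactive astrocytes, had 19.4, 14.2 and 11.3 CPM with plasma and 11.5, 9.04 and 13.4 CPM with PBS. The groups overlapped for both genes, and the change of Serpina3n was 0.41 ± 0.20. The reactive astrocyte list had 9 of 13 genes positive, with a median of 0.16 and 0 calls. Its members were spread widely, from -0.87 to 2.24, and the latter was the highest change of all 18769 genes tested. Activated microglia had 15 of 17 positive with a median of 0.07, or 0.16 without PBS replicate 15, and homeostatic microglia 5 of 13 positive with a median of -0.04. Without PBS replicate 15, 10 of those 13 homeostatic genes were positive, with a median of 0.13. Neither list had a call.

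Myelin genes were all on the positive side, with 0 of 13 past the threshold and 0 at an unadjusted p under 0.05. The summed level of the 13 genes was 8735, 8081 and 8187 CPM in plasma replicates 16, 19 and 22. It was 6031, 6830 and 8019 CPM in PBS replicates 15, 18 and 21, so that PBS replicate 21 was close below the plasma libraries. Mog, a protein of the outer myelin surface, had 62.9, 64.5 and 72.0 CPM with plasma and 42.1, 54.8 and 58.5 CPM with PBS (change 0.36 ± 0.25, or 0.23 without PBS replicate 15). The median change of the list was 0.28, 0.17 without PBS replicate 15 and 0.08 with PBS replicate 21 as the 1 PBS library. Over the 28 cortex libraries other than PBS replicate 15 the myelin sum ran from 3675 to 9233 CPM.

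The brain endothelium, the cell layer between blood and brain, had 14 of 18 genes positive, a median of 0.10 and 0 calls. The median was 0.17 without PBS replicate 15 and 0.20 without plasma replicate 16. Slc2a1, the glucose transporter of the barrier, had 120, 134 and 133 CPM with plasma and 113, 108 and 114 CPM with PBS. Ly6c1, a surface protein of brain capillaries, had 38.1, 38.9 and 43.1 CPM with plasma and 28.4, 34.6 and 29.4 CPM with PBS. Both genes had groups that do not overlap, with changes of 0.21 ± 0.09 and 0.38 ± 0.16, and 0.21 and 0.32 without PBS replicate 15. Ly6a and Tek were the other 2 endothelial genes at an unadjusted p under 0.05, with changes of 0.44 and 0.34. Of all genes tested, 2.23% were higher at that p, against these 4 of 18. Without PBS replicate 15, 2 of 18 were at an unadjusted p under 0.05 (2.9% of all genes). With PBS replicate 21 as the 1 PBS library, 7 of 18 were negative and the median was 0.13. Genes for blood-borne factors and their receptors, among them those of activins, insulin-like growth factors and colony stimulating factors, had 11 of 21 positive, a median of 0.02 (0.08 without PBS replicate 15) and 0 calls. Timp2, a metalloproteinase inhibitor, had 188, 194 and 209 CPM with plasma and 384, 184 and 188 CPM with PBS, and PBS replicate 15 stood apart from the other 5. Csf2rb, a shared receptor chain of colony stimulating factors, had 0.860, 0.922 and 0.433 CPM with plasma and 1.59, 1.07 and 1.34 CPM with PBS (change -0.93 ± 0.42).

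No gene of neuronal activity passed the test. Fos, an immediate early gene, had 19.9, 29.1 and 64.2 CPM with plasma and 21.6, 46.4 and 44.4 CPM with PBS. The highest and the lowest library were both plasma libraries, and the change was 0.03 ± 0.37, or -0.25 without PBS replicate 15. The immediate early gene list had 17 of 21 genes positive with a median of 0.14, but 8 of 21 and a median of -0.05 without PBS replicate 15. Synapse genes had a median of 0.004 with 11 of 21 positive, and -0.03 with 7 of 21 without that library. Fezf2, a transcription factor of deep-layer projection neurons, had 39.2, 32.8 and 52.3 CPM with plasma and 26.5, 27.9 and 42.1 CPM with PBS (change 0.38 ± 0.15). The excitatory neuron list as a whole had 12 of 15 positive and a median of 0.12, and 6 of 15 and -0.02 without PBS replicate 15. Each of these lists had 0 calls.

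Hormone and metabolic lists gave 0 calls as well. Of 15 glucocorticoid response genes, 12 were positive with a median of 0.20, or 0.10 without PBS replicate 15. At an unadjusted p under 0.05, 3 were higher (2.23% of all genes), and 0 without PBS replicate 15. In 5 the plasma libraries were all above the PBS libraries (5.12% of all genes). Among these was Arrdc2, with 10.6, 9.96 and 11.5 CPM with plasma and 7.15, 7.61 and 9.79 CPM with PBS. Its change was 0.39 ± 0.16, or 0.30 without PBS replicate 15 and 0.14 against PBS replicate 21 alone. Zbtb16, a transcription factor induced by glucocorticoids, had 95, 85.5 and 86.0 CPM with plasma and 34.9, 78.3 and 82.6 CPM with PBS. The change of 0.45 ± 0.20 became 0.14 without PBS replicate 15. Fkbp5, the glucocorticoid-induced chaperone, had 29.9, 28.9 and 34.1 CPM with plasma and 38.3, 26.3 and 35.0 CPM with PBS, with a change of -0.09 ± 0.14 that turned to 0.02 without PBS replicate 15. Cholesterol synthesis had 14 of 19 genes negative with a median of -0.05. Fdps, which makes farnesyl diphosphate, had 54.9, 59.0 and 59.5 CPM with plasma and 72.9, 68.3 and 60.5 CPM with PBS. The groups did not overlap, and the change was -0.22 ± 0.09. Hmgcs1 and Nsdhl, also at an unadjusted p under 0.05, had changes of -0.19 and -0.24, the latter -0.10 without PBS replicate 15.

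With all 6 libraries, ribosomal proteins (76 genes, median -0.007), nuclear respiratory chain genes (80 genes, median 0.03) and proteasome subunits (38 genes, median -0.02) lay near 0 with no call. Without PBS replicate 15 their medians were 0.002, -0.015 and -0.04. With PBS replicate 21 as the 1 PBS library they were 0.10, 0.07 and -0.01, and 7 of the 76 ribosomal genes were negative. The mitochondrially encoded mt-Atp6 had 24.2 CPM in plasma replicate 19 and 4.22 to 6.62 CPM in the other 5 libraries, and mt-Atp8 had 6.45 CPM against 1.17 to 1.57. Plasma replicate 19 was also the library with the lowest total. Over all 13 mitochondrially encoded genes the median change was 0.015, or 0.05 without PBS replicate 15. Against PBS replicate 21 alone it was 0.21, with 0 of 13 negative.

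**Figure D4:**
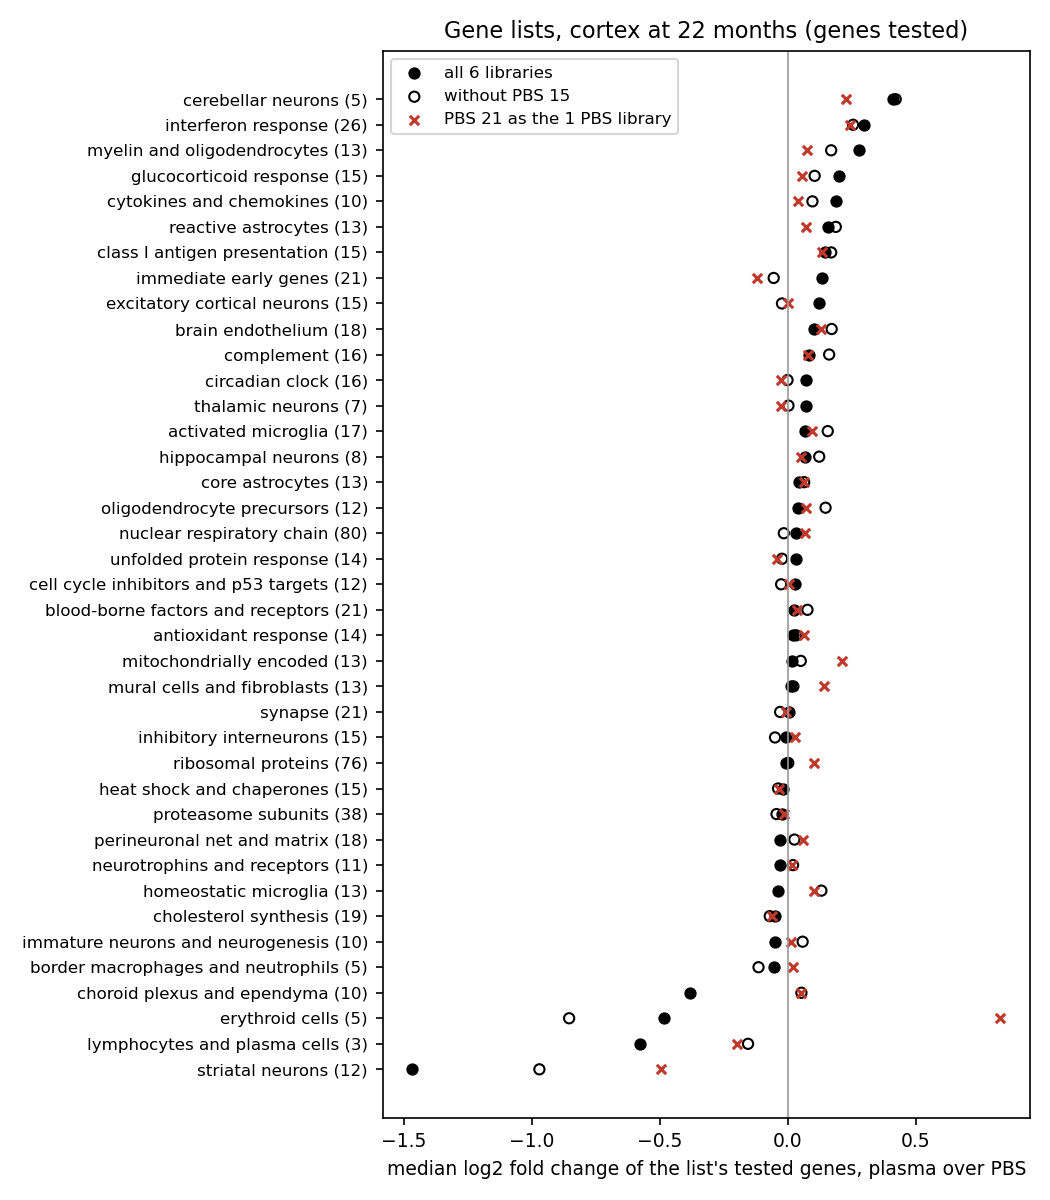
Each of the 39 gene lists is placed by the median log2 fold change of its tested genes, plasma over PBS, with the number of genes tested in parentheses. Filled circles use all 6 libraries, open circles leave out PBS replicate 15, and crosses use PBS replicate 21 as the 1 PBS library. The striatal list lies lowest in the first reading (-1.47), the choroid plexus list moves from -0.38 to 0.05, and the myelin list goes from 0.28 to 0.17 and 0.08.

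Genes that change with age gave a further set to describe, since untreated libraries share no sample with the plasma comparison. In the cortex of untreated mice, 21 of 18769 genes (0.112%) passed the threshold between 18 and 2 months, 16 higher and 5 lower in the older mice, with 6.18% of genes at an unadjusted p under 0.05. The design text gives 3 months for the young mice that the labels put at 2 months. None of the 21 passed in the plasma comparison, where the lowest unadjusted p was 0.0653, for H2-K1, and the lowest adjusted p 0.878. The plasma change was opposite in sign to the age change in 5 of the 21 (23.8%), compared with 45.5% of all genes tested. Without PBS replicate 15 it was 12 of the 21, beside 9483 of 18768 genes tested, so the count rests on 1 library. The 95% interval of the plasma change left out a full reversal of the age change in 21 of 21 genes. It left out a reversal by 50% in 20 of 21, the exception being Ass1, an enzyme of arginine synthesis. These intervals include PBS replicate 15. The age changes were taken at their estimates, without their error, in genes selected for passing with age. Cyp2e1 and Gm13212 had 0 CPM in the young mice, so their age changes of 6.41 ± 1.30 and 6.97 ± 1.32 made the exclusion easy.

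H2-Q7, a class I gene, had 2.19, 3.13 and 3.25 CPM with plasma and 1.66, 1.49 and 1.87 CPM with PBS. It was higher by 2.68 ± 0.54 (log2) with age and had a plasma change of 0.75 ± 0.41 in the same direction. Neat1, a long noncoding RNA of nuclear paraspeckles, had 142, 146 and 140 CPM with plasma and 92.3, 115 and 135 CPM with PBS. It was higher by 1.16 ± 0.22 (log2) with age, with a plasma change of 0.32 ± 0.21, or 0.18 without PBS replicate 15. These 2 of 21 were the age genes whose plasma and PBS groups did not overlap, as in 10.3% of all genes tested. Gpr17, a receptor of oligodendrocyte precursors whose age change was -1.27 ± 0.21, had 15.4, 18.3 and 17.0 CPM with plasma and 28.9, 13.3 and 14.1 CPM with PBS. PBS replicate 15 alone was above the plasma libraries, and the plasma change of -0.17 ± 0.21 became 0.28 ± 0.18 without it. Mfsd2a, the lipid transporter of the blood-brain barrier, changed by -0.84 ± 0.15 with age and by 0.09 ± 0.14 with plasma, or 0.17 without PBS replicate 15.

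**Figure D5:**
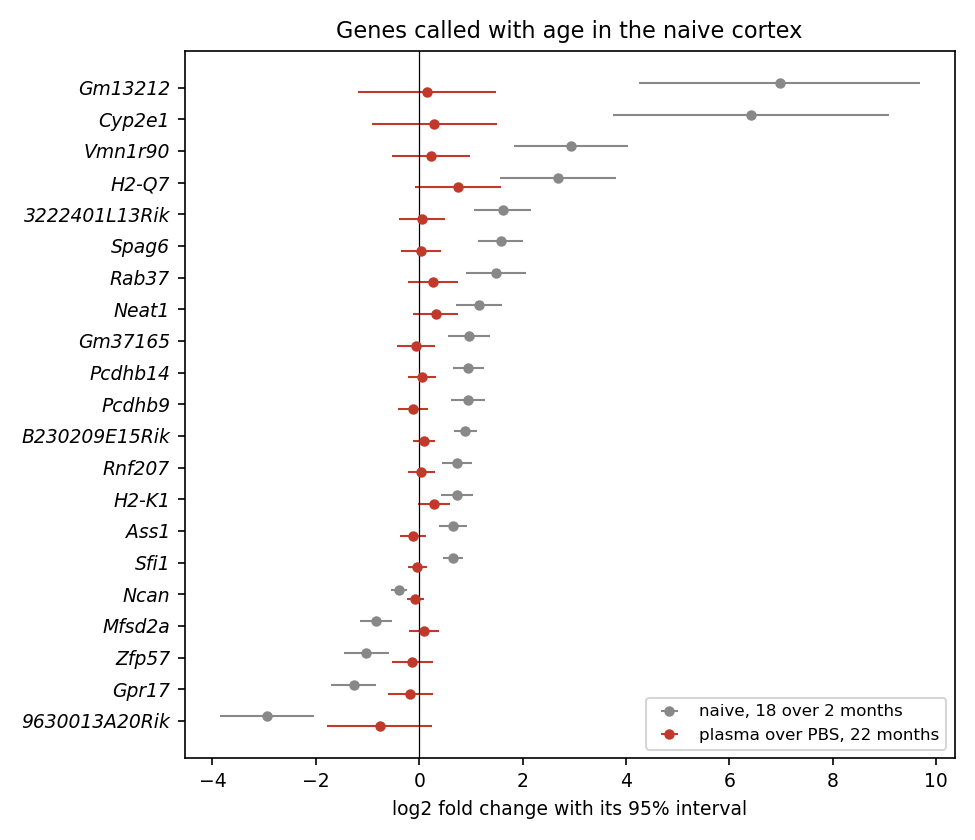
Log2 fold changes with their unadjusted 95% intervals are shown for the 21 genes called between untreated mice of 18 and 2 months (grey), with the plasma change at 22 months in red. The red intervals all include 0, and the 5 genes with a red point on the other side of 0 from the grey point are Ass1, Gm37165, Mfsd2a, Pcdhb9 and Sfi1.

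The plasma change in the cortex at 22 months was set against that at 18 months with the same 7 injections, in 5 plasma and 4 PBS mice. The difference between ages called 0 of 18769 genes (0%), with 1391 at an unadjusted p under 0.05 (7.41%) and a smallest adjusted p of 0.603. At 18 months plasma itself called 0 genes, with 4.06% at an unadjusted p under 0.05. None of the 12 named lower genes was lower with plasma at 18 months, where their changes ran from 0.004 to 0.87. The median change over all genes tested was 0.0001 there. Of the 12 named higher genes, 5 were higher there. Oprk1 changed by 0.87 ± 0.44 at 18 months, against -2.25 ± 0.59 at 22 months. Igfbp7 changed by -0.24 ± 0.13 at 18 months, against 0.58 ± 0.15. The differences of -3.12 ± 0.74 and 0.82 ± 0.20 each had an adjusted p of 0.603. The striatal list had a median of 0.45 at 18 months with 11 of 12 positive, and the difference of the changes had a median of -1.88, with 12 of 12 negative and 0 called. All these differences include PBS replicate 15. Without it the change at 22 months was -1.47 for Oprk1, 0.53 for Igfbp7 and -0.97 for the striatal median.

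Mice of 19 months with 24 injections gave the same kind of comparison with 3 plasma and 4 PBS mice, where age and number of injections differ together from the mice of 22 months. The difference called 0 genes (0%), with 550 at an unadjusted p under 0.05 (2.93%). Plasma itself called 0 genes with 24 injections, with 3.52% at an unadjusted p under 0.05. Of the 12 named lower genes, 11 were also lower with 24 injections, where the median over all genes tested was -0.006. The striatal list there had 12 of 12 negative and a median of -1.03. Its summed level was 376, 306 and 315 CPM with plasma. In PBS replicates 24, 26, 28 and 29 it was 1154, 670, 302 and 335 CPM. PBS replicates 28 and 29 were thus at the level of the plasma libraries, and only PBS replicates 24 and 26 were above them. The named genes were chosen in libraries that include PBS replicate 15. Of the 12 named higher genes, 7 were higher. C4b changed by -1.15 ± 0.41 with 24 injections and by 0.48 ± 0.35 here, a difference of 1.63 ± 0.54 with an unadjusted p of 0.00524 that did not pass after adjustment. The myelin list had 0 of 13 positive with 24 injections, with a median of -0.15.

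The hippocampus and cerebellum of the same 6 mice showed whether the cortical values were shared by the brain of a mouse. The difference of the plasma change, cortex minus hippocampus, called 0 of 19490 genes (0%), with 889 at an unadjusted p under 0.05 (4.56%). It called 1 gene in DESeq2, Slc16a8, with an estimate of -18.6 (log2). Without mouse 21, which leaves PBS replicates 15 and 18, it called 9 genes. Among the 9 was Dlk1, with 11.0 CPM in PBS replicate 15 and at most 0.712 CPM in the other cortex libraries of 22 months. The part of PBS replicate 15 in these calls was not tested. Plasma itself called 0 genes in the hippocampus (3.15% at an unadjusted p under 0.05) and 0 in the cerebellum (1.52%). Ptgds, higher with plasma in the cortex by 0.69 ± 0.21, changed by -2.05 ± 0.57 in the hippocampus. The difference of 2.75 ± 0.79 had an adjusted p of 0.721. The myelin list was 0 of 13 positive in both the hippocampus (median -0.25) and the cerebellum (median -0.09). The interferon list had 6 of 27 positive in the hippocampus (median -0.17) and 18 of 27 in the cerebellum (median 0.07). None of the 27 differed between cortex and either region past the threshold.

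Cortex minus cerebellum called 1 of 19490 genes (0.00513%), with 530 at an unadjusted p under 0.05 (2.72%). The gene was Cbln3, a cerebellin secreted by cerebellar granule cells (chromosome 14, 55878913 to 55884392). In the cortex it had 5.39 CPM in plasma replicate 16, 0.553 and 0.289 CPM in plasma replicates 19 and 22, and 0.265, 0.0712 and 0.299 CPM in PBS replicates 15, 18 and 21. In the cerebellum it had 849 to 1006 CPM in the 6 mice. The difference was 3.36 ± 0.64 with an adjusted p of 0.0333 in edgeR's quasi-likelihood test, and 3.27 with an adjusted p of 0.405 with the mouse as a block. Without mouse 16 it was 0.72, with no call. Cbln3 passed the filter on low counts in the fit over regions through its level in the cerebellum, and it was not among the genes tested in the cortex alone. It is below the 5 CPM asked of a named gene and was chosen after its values were seen. The summed level of 9 cerebellar markers was 45.1 CPM in plasma replicate 16 and 21.9 to 26.8 CPM in the other 5 cortex libraries.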

How the data were processed

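The authors deposited 1 table of raw counts per gene symbol and library, and every column matched a sample by its title. Per the labels' protocols, RNA was isolated from tissue homogenates with an RNeasy kit, turned into cDNA by Smart-Seq2 and made into unstranded Nextera XT libraries, so reads of overlapping or antisense genes cannot be told apart. Per the submitters' processing notes, Trim Galore 0.3.7, STAR 2.5.3a, DESeq2 and GRCm38 were named; the counting tool and annotation are not given in the sources used here. The table lists 35486 symbols, 6251 of them with no count in any library, and 35047 matched reference names. Coordinates are from GENCODE on GRCm38.

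Counts were analysed in R 4.3.3 with edgeR 4.0.16: TMM normalization, genes kept by filterByExpr at a count of 10 and a total of 15, 1 coefficient per group over the 29 cortex libraries of the first experiment (8 groups), and the quasi-likelihood test with Benjamini-Hochberg adjustment over all genes. Changes are log2 fold changes of plasma over PBS ± SE. Differences between experiments and regions were interaction contrasts, the latter over 87 libraries. CPM use library totals. Named genes were, per direction, the 12 with the lowest p among genes of 5 CPM or more on average, with no clone name and no overlap between the groups, since none passed the threshold of 0.05. Up to 2 genes per list, C4b, Gfap, Serpina3n, Fkbp5 and Fos were also eligible. A few eligible genes are left out of the text but kept in all counts. Members, lists and tests were chosen with earlier results of these data known.

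Alternatives were DESeq2 1.42.0, limma-voom with quality weights (limma 3.58.1), no filter on low counts, RLE (relative log expression) factors, the compared groups alone, each library left out in turn, PBS replicate 21 alone and, for regions, the mouse as a block. Leaving out libraries under 2500000 counts, the striatal score as a covariate, and the use of all alternatives for genes, lists and age genes were added after seeing the data. The regions of a mouse share its number in the labels. Deviations from group means had median correlations of 0.136 (cortex and hippocampus) and 0.0176 (cortex and cerebellum). The scripts were tested on simulated counts. Reads carry no molecular identifiers, so counts are not independent molecules.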

Additional observations from a re-analysis of the deposited data

Results flagged for a closer look

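The plasma change of Cbln3 differed between cortex and cerebellum by 3.36 ± 0.64 (log2, SE; adjusted p = 0.0333 in edgeR's quasi-likelihood test, an interaction between region and treatment). It drew attention because it was the 1 gene past the threshold in a test of whether the regions respond differently. The gene passed the filter on low counts through its level in the cerebellum and was not tested in the fit of the cortex alone. The value rests on plasma replicate 16, with 5.39 CPM in the cortex against 0.0712 to 0.553 CPM in the other 5 cortex libraries. Without that mouse the difference was 0.72. The call was also lost without each of the 3 PBS mice in turn, with adjusted p from 0.265 to 0.746, and with the mouse as a block (adjusted p = 0.405), in DESeq2 (0.667) and in limma-voom (0.999). It was kept without plasma replicate 19 (0.00506) and 22 (2.4e-05), with relative log expression factors (0.0374) and with no filter (0.0226). Of the other 8 cerebellar markers in that library, Gabra6 (0.860 CPM), Fat2 (1.09 CPM) and Pcp2 (5.08 CPM) were above the highest other cortex library (0.196, 0.564 and 4.69 CPM). Cbln1, Zic1, Zic2, En2 and Car8 were below theirs. Over all 9 cerebellar markers the sum was 45.1 CPM in that library and 21.9 to 26.8 CPM in the other 5, and its part in the result was not tested.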

How the results depend on the processing

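The count of 0 genes for plasma against PBS held under every alternative run, with a smallest adjusted p of 0.12 (without PBS replicate 21) to 1. The count at an unadjusted p under 0.05 ran from 394 (PBS replicate 21 alone) to 1687 (without PBS replicate 21). The differences from 18 months and from 24 injections also had 0 calls throughout. No paired analysis was possible for plasma against PBS because the replicate numbers of the 2 groups do not overlap; with the mouse as a replicate block the regional differences called 0 genes for hippocampus and 0 for cerebellum. Cortex minus hippocampus called 1 gene in DESeq2 and 0 to 9 with a mouse left out, 9 without mouse 21. Cortex minus cerebellum called 0 genes in DESeq2 and limma-voom, and 0 to 1 with a mouse left out. The 21 age genes became 32 in DESeq2, 13 in limma-voom, 5 with the naive groups alone, 13 without shallow libraries, and 3 to 19 with 1 library left out (3 without naive replicate 6 and 5 without naive replicate 9 of 18 months; 8 and 10 without naive replicates 12 and 14 of 2 months). Fkbp5 ran from -0.229 to 0.0198 with 1 library left out, turning positive without PBS replicate 15. Fos turned to -0.35 in limma-voom, -0.20 with PBS replicate 21 alone and -0.0622 with the striatal covariate, and ran from -0.65 (without plasma replicate 22) to 0.36 (without plasma replicate 16), with -0.25 without PBS replicate 15. That covariate is built from the striatal markers themselves, so the striatal median of -0.06 near 0 was fixed by its construction and is no result. With the covariate the myelin median was 0.52. Over list medians, 32 of the alternative values moved by more than the spread between replicates. The cause was not tested. The median SE was 0.15 over all genes and 0.11 at 5 CPM or more.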
